A study of Mus musculus with 27 samples.

Results

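Hox genes encode homeodomain transcription factors that give cells their position along the body axis. In the mouse they lie in 4 clusters, Hoxa, Hoxb, Hoxc and Hoxd, and the genes of a cluster share 1 direction of transcription. Genes with the same number in different clusters, called paralogues, resemble each other most, and low numbers are used towards the head and high numbers towards the tail. Polycomb complexes keep unused Hox genes silent and trithorax complexes keep used ones active. In the embryonic kidney the paralogues numbered 11 act together with Eya1 and its partners to switch on Gdnf, the growth factor that draws out the ureteric bud.

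The Hox genes examined here were all rows of a table of 24953 gene symbols whose symbol is Hoxa, Hoxb, Hoxc or Hoxd followed only by a paralogue number. This rule gave 39 genes, 11 of Hoxa, 10 of Hoxb, 9 of Hoxc and 9 of Hoxd. RNA-seq of polyadenylated RNA was available from 9 libraries of mK4, a mouse cell line made from metanephric mesenchyme, the embryonic tissue from which nephrons form. Control cells were the parental mK4 line. Runx1KO cells were mK4 cells in which a pair of guide RNAs had deleted exon 3 of Runx1, which holds the start codon used in this line. ZebDKO cells were mK4 cells with guide RNAs aimed at exon 2 of Zeb1 and exon 1 of Zeb2, so that both of these repressor genes were targeted and Runx1 was not. Each group had 3 libraries from separate cultures grown in the same serum medium to near confluence. Both knockouts were picked as clones after puromycin selection, and the number of clones behind the libraries is not given in the sources used here, so genotype and clone cannot be told apart and the p-values measure the spread between cultures only. Whether the ZebDKO libraries were sequenced together with the others is not given either, so run and genotype cannot be told apart. ATAC-seq, which maps open chromatin, and ChIP-seq of Runx1 and Runx2, which maps their binding, came from control and Runx1KO cells. ZebDKO chromatin was not analysed here.

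Expression was deposited as TPM, a level per unit of gene length, which allows genes to be compared with each other. TPM values do not carry the number of reads behind them, so no counting interval is given. Of 12 markers of metanephric mesenchyme, 8 reached 1 TPM in a control library, and Six2, Cited1, Wt1 and Meox1 stayed under 1 TPM in all 3. Runx1 itself lay at 15.6 to 18.7 TPM in control, 28.5 to 30.3 TPM in Runx1KO and 9.4 to 10.5 TPM in ZebDKO libraries. Zeb1 lay at 14.2 to 15.6, 0.1 to 0.2 and 14.8 to 16.8 TPM in the same order. Zeb2 lay at 4.9 to 5.5 TPM in control, 0.2 TPM in every Runx1KO library and 1.6 to 1.8 TPM in ZebDKO. Because TPM pools every exon of a gene, a deleted exon need not show, and these values check no label. The 12 epithelial markers summed to 3.4 to 6 TPM in control, 2664 to 2745 TPM in Runx1KO and 1152 to 1211 TPM in ZebDKO. Krt8 carried most of the knockout sums, at a mean of 2353 TPM in Runx1KO and 1050 TPM in ZebDKO. Under 1 TPM in all libraries were 10 of the 12 in control, 5 in Runx1KO and 6 in ZebDKO, with Cdh1 among them each time. Markers of the ureteric bud summed to 61.1 to 82 TPM, of endothelium to 1 to 5.8 TPM and of blood to 3.1 to 9.8 TPM over all 9 libraries. Mesenchyme markers summed to 3302 to 3432 TPM in control, 3345 to 3477 TPM in Runx1KO and 2459 to 2520 TPM in ZebDKO, a sum carried by Vim, at a mean of 2803 TPM in control. Of these 12 markers, 4 were under 1 TPM in all libraries of control, 7 in Runx1KO (Osr1, Gdnf and Itga8 in addition) and 5 in ZebDKO. The part of these shifts in the Hox results was not tested. In bulk libraries, fewer cells that express a gene and less RNA per cell cannot be told apart.

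Control mK4 cells used the Hoxa and Hoxb clusters and left Hoxc and Hoxd almost silent. At least 1 TPM in all 3 control libraries was reached by 21 of the 39 genes: 10 of 11 in Hoxa, 9 of 10 in Hoxb, 2 of 9 in Hoxc and none in Hoxd. Hoxb9 had the highest mean level, 242 ± 7.71 TPM (SD, n = 3), which placed it at rank 767 among all genes of the table. Hoxa11 followed at 214 ± 2.86 TPM, and its control libraries lay wholly below those of Hoxb9. Hoxb2 came next at 124 ± 4.59 TPM, well apart from Hoxb7 at 70.4 ± 3.95 TPM and Hoxb6 at 65 ± 5.28 TPM, which overlapped each other. Hoxa7 and Hoxa9 did not differ beyond their spread, at 49.7 ± 0.458 and 49.7 ± 1.68 TPM.

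The last gene at the 5′ end of Hoxa, Hoxa13, and the first at the 3′ end of Hoxb, Hoxb1, averaged under 1 TPM in every group. So did 15 others, 7 of them in Hoxc and 8 in Hoxd, and no single library of these 17 genes exceeded 0.8 TPM. Hoxd11 and Hoxd12 were listed at 0 in all 9 libraries. Of the kidney paralogues numbered 11, only Hoxa11 was therefore above 1 TPM in these cells.

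**Figure D1:**
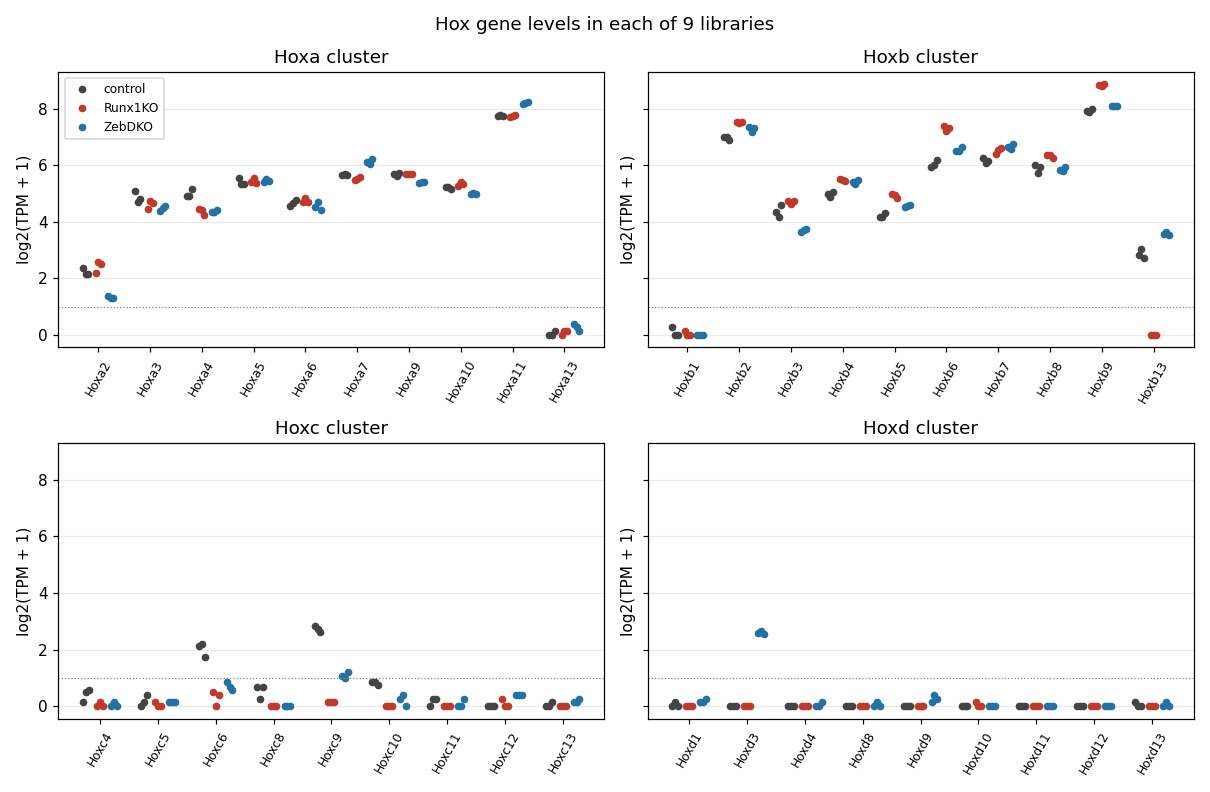
Level of Hox genes as log2(TPM + 1) in each library, 1 panel per cluster, with 3 points per group for control, Runx1KO and ZebDKO; the dotted line marks 1 TPM. Hoxa3 to Hoxa11 and Hoxb2 to Hoxb9 lie above 10 TPM in all 9 libraries, Hoxc6 lies above 1 TPM in control alone, and Hoxd3 in ZebDKO alone.

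Summed over a cluster, Hoxb was higher in both knockouts and Hoxc lower; sums are given as a description, with no test. The Hoxb genes summed to 633 ± 16.9 TPM in control, 1059.5 ± 16.8 TPM in Runx1KO and 764 ± 25.3 TPM in ZebDKO (SD, n = 3 each), and the 3 groups did not overlap. Hoxa summed to 482 ± 4.57 TPM in control, 466 ± 9.19 TPM in Runx1KO and 544 ± 8.2 TPM in ZebDKO. Every ZebDKO library lay above, and every Runx1KO library below, the control libraries in this sum. Its largest member, Hoxa11, had a mean of 214 TPM in control and 292 TPM in ZebDKO, and the sum does not stand for each Hoxa gene. Hoxc summed to 10.6 ± 0.723 TPM in control, 0.467 ± 0.306 TPM in Runx1KO and 2.57 ± 0.0577 TPM in ZebDKO. Hoxd was at or under 0.1 TPM in each control and Runx1KO library and at 5.2, 5.9 and 5.4 TPM in ZebDKO. Hoxb thus made up 56.2 ± 0.545% of all Hox TPM in control, 69.4 ± 0.641% in Runx1KO and 58.1 ± 0.751% in ZebDKO.

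**Figure D2:**
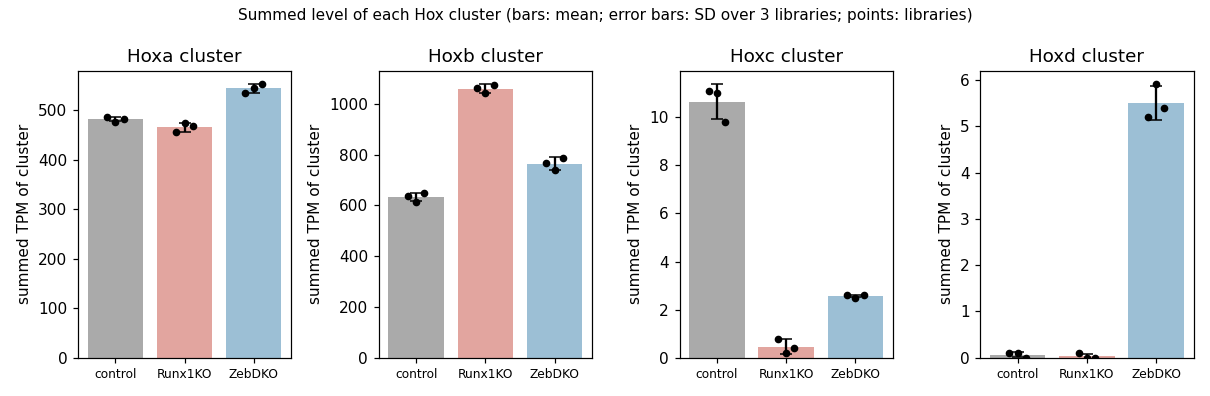
Summed TPM of each Hox cluster in control, Runx1KO and ZebDKO cells; bars are means, error bars the SD over 3 libraries and points the libraries, and each panel has its own scale. Hoxb is highest in Runx1KO (mean 1059.5 TPM), Hoxc falls from 10.6 TPM in control to 0.467 TPM in Runx1KO, and Hoxd reaches 5.5 TPM in ZebDKO.

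Grouped by paralogue number, group 9 carried the most RNA in every group of libraries. It summed to 297 ± 8.74 TPM in control, 503 ± 8.71 TPM in Runx1KO and 316 ± 2.03 TPM in ZebDKO. Group 6 summed to 92.3 ± 6.35, 183 ± 8.42 and 116 ± 3.82 TPM in the same order. Group 11 gave overlapping sums in control (214 ± 2.92 TPM) and Runx1KO (212 ± 3.95 TPM), and 292 ± 4.14 TPM in ZebDKO. Group 13, carried by Hoxb13, went from 6.4 ± 0.721 TPM in control to 0.0667 ± 0.0577 TPM in Runx1KO and 11.4 ± 0.503 TPM in ZebDKO.

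The comparison of Runx1KO with control asked how the Hox genes responded to the loss of Runx1. Of the 39 genes, 21 passed a filter (1 TPM or more in 3 or more of the 6 libraries) and were tested among all 13067 genes that did, by limma on log2(TPM + 1), two-sided with Benjamini-Hochberg adjustment; fold changes are on that scale and understate the change of low genes. Over 2-fold with an adjusted p under 0.05, 1 Hox gene rose (Hoxb6) and 3 fell (Hoxb13, Hoxc6 and Hoxc9), where 13% of all genes tested passed in either direction, 7.91% higher and 5.1% lower. The 3 that fell had passed the filter through the control libraries alone and were bound to differ. At an adjusted p under 0.05 with no fold limit, 9 rose and 5 fell, where 70.5% of all genes tested passed (30.4% higher and 40.1% lower). The groups of libraries did not overlap for 14 members, against 73.7% of all genes tested. After scaling each library by median ratios the members split into 10 higher and 4 lower, and the background into 34.7% and 34.1%. The median log2 fold change was 0.09 over the 21 members and -0.06 over all genes tested.

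All 8 genes of the dense part of Hoxb, Hoxb2 to Hoxb9, rose in Runx1KO cells, and they did so to unequal degrees. Of all genes tested, 30.4% rose at an adjusted p under 0.05. Hoxb2 and Hoxb3 share exon bases with the antisense gene Hoxb3os, Hoxb5 with another antisense gene, and Hoxb7 with Hoxb8. Hoxb3os read 128.2, 119 and 122.1 TPM in control and 185.1, 177.3 and 180.9 TPM in Runx1KO. Strand use in the counts is not given, so reads of overlapping genes cannot be told apart. Hoxb6 lies at chr11:96153790-96162883 (mm9, plus strand) and stood at 60.5, 63.6 and 70.8 TPM in control, 164.6, 145.6 and 158.9 TPM in Runx1KO and 89.6, 90.1 and 99.4 TPM in ZebDKO. The 3 groups were fully separate, with Runx1KO highest, and Runx1KO exceeded control by a log2 fold change of 1.26 (SE 0.0682, limma adjusted p = 4.43e-06). Hoxb9, the most abundant Hox gene, lies at chr11:96132771-96137909 and stood at 238.5, 236.6 and 250.8 TPM in control, 450.6, 445 and 462.2 TPM in Runx1KO and 274.6, 270.9 and 273.9 TPM in ZebDKO. Its log2 fold change in Runx1KO was 0.90 (SE 0.0306, limma adjusted p = 3.99e-07), short of 2-fold, and its rank among all genes went from 767 to 336.

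The other 6 Hoxb genes rose by less. Hoxb5 read 16.8, 16.8 and 18.6 TPM in control and 30.9, 30.2 and 27.9 TPM in Runx1KO, a log2 fold change of 0.74. Hoxb2, which patterns the hindbrain, read 126.2, 126.1 and 118.2 TPM in control and 182.7, 180.7 and 185.5 TPM in Runx1KO, a change of 0.56. Hoxb4, known for its part in blood stem cells, read 30.3, 28.3 and 31.8 TPM in control and 44.2, 43.6 and 42.5 TPM in Runx1KO, a change of 0.51. None of these 3 overlapped between the groups. Hoxb8 read 62.8, 51.7 and 59.8 TPM in control and 81.4, 81.1 and 75.7 TPM in Runx1KO, a change of 0.45. Hoxb7 read 74.8, 67.1 and 69.4 TPM in control and 83.5, 91.1 and 95.5 TPM in Runx1KO, a change of 0.35. Hoxb3 read 19.2, 17.2 and 23 TPM in control and 25.7, 23.7 and 25.6 TPM in Runx1KO, a change of 0.33 with the narrowest gap of the 6. The limma adjusted p of these 6 genes ran from 6.46e-06 for Hoxb2 to 0.0199 for Hoxb3. Hoxb3 no longer passed the test without control replicate 1 (adjusted p = 0.0602), without Runx1KO replicate 1 (0.0656) or without Runx1KO replicate 3 (0.0637).

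Runx1 peaks of control cells lay at the start of Hoxb9 and upstream of it. The sequence below is the upstream one, at chr11:96096430-96096578 (mm9, 149 bp), in the gap of 74 kb between Hoxb13 and Hoxb9, centred at -36.3 kb from the start of Hoxb9 and outside any annotated gene. It is 1 of 2 Runx1 peaks of the cluster, of which the other is not shown. It is given on the plus strand, 5′ to 3′, and capitals mark the core of the Runx site, TGTGGT, or its reverse complement ACCACA.
Hoxb intergenic peak: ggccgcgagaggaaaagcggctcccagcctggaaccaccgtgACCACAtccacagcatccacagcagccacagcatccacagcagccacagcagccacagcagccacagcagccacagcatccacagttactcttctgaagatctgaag
This peak holds the core once, on the minus strand. Of all Runx1 peaks set to the same length around their middle, 29.9% held it.

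Hoxb13 went the other way from its neighbours in the cluster. This posterior gene, used in the tail bud, hindgut and prostate, lies alone at chr11:96055630-96058761, far from Hoxb9. It stood at 6.1, 7.2 and 5.6 TPM in control, was listed at 0 in all 3 Runx1KO libraries and stood at 10.9, 11.5 and 10.6 TPM in ZebDKO. The 3 groups were separate. Against Runx1KO, Hoxb13 had passed the filter through control alone and was bound to differ (limma adjusted p = 4.34e-07). Its rise in ZebDKO passed limma's test (adjusted p = 0.000158). No fold is given against a group listed at 0.

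The low Hoxc genes of control cells were lost in Runx1KO and reduced in ZebDKO. Hoxc9, a trunk and limb gene at chr15:102806870-102815530, stood at 6.2, 5.7 and 5.1 TPM in control, at 0.1 TPM in each Runx1KO library and at 1.1, 1 and 1.3 TPM in ZebDKO. Hoxc6, at chr15:102828688-102842312, stood at 3.4, 3.6 and 2.3 TPM in control, 0.4, 0 and 0.3 TPM in Runx1KO and 0.8, 0.6 and 0.5 TPM in ZebDKO. Control libraries lay above all others for both genes, and Runx1KO lay below ZebDKO. For Hoxc6 every knockout library was under 1 TPM, with 0.4 TPM in Runx1KO against 0.5 TPM in ZebDKO at the closest. The order of the knockouts was not tested for Hoxc6, which did not reach the filter of their direct comparison. The log2 fold change in Runx1KO was -2.60 for Hoxc9 (SE 0.0873, limma adjusted p = 3.83e-07) and -1.73 for Hoxc6 (SE 0.177, adjusted p = 0.000112). Both genes had passed the filter of this comparison through control alone and were bound to differ. In ZebDKO it was -1.64 for Hoxc9 (SE 0.0945, limma adjusted p = 3.64e-06) and -1.32 for Hoxc6 (SE 0.147, adjusted p = 0.000105), and Hoxc6 had again passed the filter through control alone. The other 7 Hoxc genes were too low to be tested and did not move one way. Among the highest of them, Hoxc10 read 0.8, 0.8 and 0.7 TPM in control and 0 in Runx1KO, and Hoxc8 read 0.6, 0.2 and 0.6 TPM in control and 0 in both knockouts. Hoxc12 was listed at 0 in control and read 0.3 TPM in each ZebDKO library, and Hoxc13 read 0 to 0.1 TPM in control and 0.1 to 0.2 TPM in ZebDKO.

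Hoxc6 and Hoxc9 each had a Runx2 peak at the start. The Hoxc6 peak of control cells, chr15:102828557-102828759, overlapped a Runx2 peak of Runx1KO cells, whereas the Hoxc9 peak, chr15:102806287-102806476, was listed in Runx1KO cells only; a difference in peak calls was not tested. The sequences below, on the plus strand with the core in capitals, are shown as the Runx2 peaks at the starts of the Hoxc genes that fell; for Hoxc6 only chr15:102828557-102828687, the part before the annotated start, is given.
Hoxc6 promoter peak: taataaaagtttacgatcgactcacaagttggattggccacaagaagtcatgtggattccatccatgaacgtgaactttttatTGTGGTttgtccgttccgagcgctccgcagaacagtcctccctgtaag
Hoxc9 promoter peak: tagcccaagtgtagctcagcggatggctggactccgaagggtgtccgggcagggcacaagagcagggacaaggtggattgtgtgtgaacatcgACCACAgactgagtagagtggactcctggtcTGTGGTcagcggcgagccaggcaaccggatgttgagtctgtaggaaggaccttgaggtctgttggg
The Hoxc6 stretch holds TGTGGT once and the Hoxc9 peak holds TGTGGT once and ACCACA once. Of all Runx2 peaks set to the same lengths, 30.7% in control held the core at 131 bp and 39.6% in Runx1KO at 190 bp. Both stretches lie outside annotated exons and inside the predicted gene Gm20398.

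The Hoxa cluster held few genes that passed the test in Runx1KO. Of its 10 tested genes, 1 rose, 2 fell and 7 did not pass the test, where 30.4% of all genes tested rose and 40.1% fell. Hoxa4 fell most, from 29.2, 29.4 and 35.1 TPM in control to 20.8, 20.4 and 18 TPM in Runx1KO, with 19.3, 19.5 and 20.3 TPM in ZebDKO. Its log2 fold change was -0.63 in either knockout (limma adjusted p = 0.000468 and 0.000134), and the knockouts overlapped each other. Hoxa7 read 49.2, 50.1 and 49.8 TPM in control, 43.6, 44.3 and 46.8 TPM in Runx1KO and 67.6, 65.2 and 73.4 TPM in ZebDKO. It fell by 0.14 on the log2 scale in Runx1KO (limma adjusted p = 0.009) and did not pass after median-ratio scaling (adjusted p = 0.0704). Hoxa10 read 36.4, 36.6 and 34.3 TPM in control, 37.6, 41 and 39.3 TPM in Runx1KO and 30.7, 31.1 and 30.5 TPM in ZebDKO. Its rise of 0.13 in Runx1KO (limma adjusted p = 0.0326) was lost without control replicate 1 (0.0508), control replicate 3 (0.0969), Runx1KO replicate 2 (0.103) or Runx1KO replicate 3 (0.0796).

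Hoxa11, the kidney patterning gene at chr6:52192107-52196213, did not pass the test in Runx1KO and rose in ZebDKO. It read 212.4, 217.4 and 212.5 TPM in control and 209.2, 210.5 and 216.6 TPM in Runx1KO. The groups overlapped, and the log2 fold change was -0.01 (SE 0.0251, limma adjusted p = 0.648). In ZebDKO it read 288.4, 291 and 296.3 TPM, above every other library, a log2 fold change of 0.45 (SE 0.0263, limma adjusted p = 4.12e-06). Its antisense gene Hoxa11os read 337.7, 354.4 and 334.5 TPM in control, 462.1, 468.9 and 469.1 TPM in Runx1KO and 385.1, 359.8 and 381 TPM in ZebDKO. The exons of Hoxa11 and an antisense gene overlap, and whether the gene counts used strand is not given in the sources used here, so reads of the 2 cannot be told apart. In all, 18 Hox genes share exon bases with another annotated gene, 8 of them with a gene on the other strand, and Hoxa2 with Hoxa3, Hoxb7 with Hoxb8 and Hoxd3 with Hoxd4 share them with each other; their values are uncertain to that extent.

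The remaining Hoxa genes above 5 TPM did not pass the test in Runx1KO. Hoxa3 read 33, 25.2 and 27.1 TPM in control, 21.1, 25.3 and 24.4 TPM in Runx1KO and 19.9, 21.4 and 22.3 TPM in ZebDKO, where only ZebDKO passed the test. Hoxa9 read 50.1, 47.9 and 51.2 TPM in control, 50.4, 50.8 and 50.6 TPM in Runx1KO and 40.8, 41.1 and 41.6 TPM in ZebDKO, with ZebDKO below all others. Hoxa5, a lung and skeletal gene, read 45.7, 39.3 and 39.4 TPM in control, 41.8, 45.4 and 40.5 TPM in Runx1KO and 41.8, 44.4 and 42 TPM in ZebDKO. Its 3 groups overlapped. Hoxa6 read 22.6, 24.2 and 26 TPM in control, 25, 27.8 and 25 TPM in Runx1KO and 22.2, 25 and 20.3 TPM in ZebDKO, and its groups overlapped too.

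**Figure D3:**
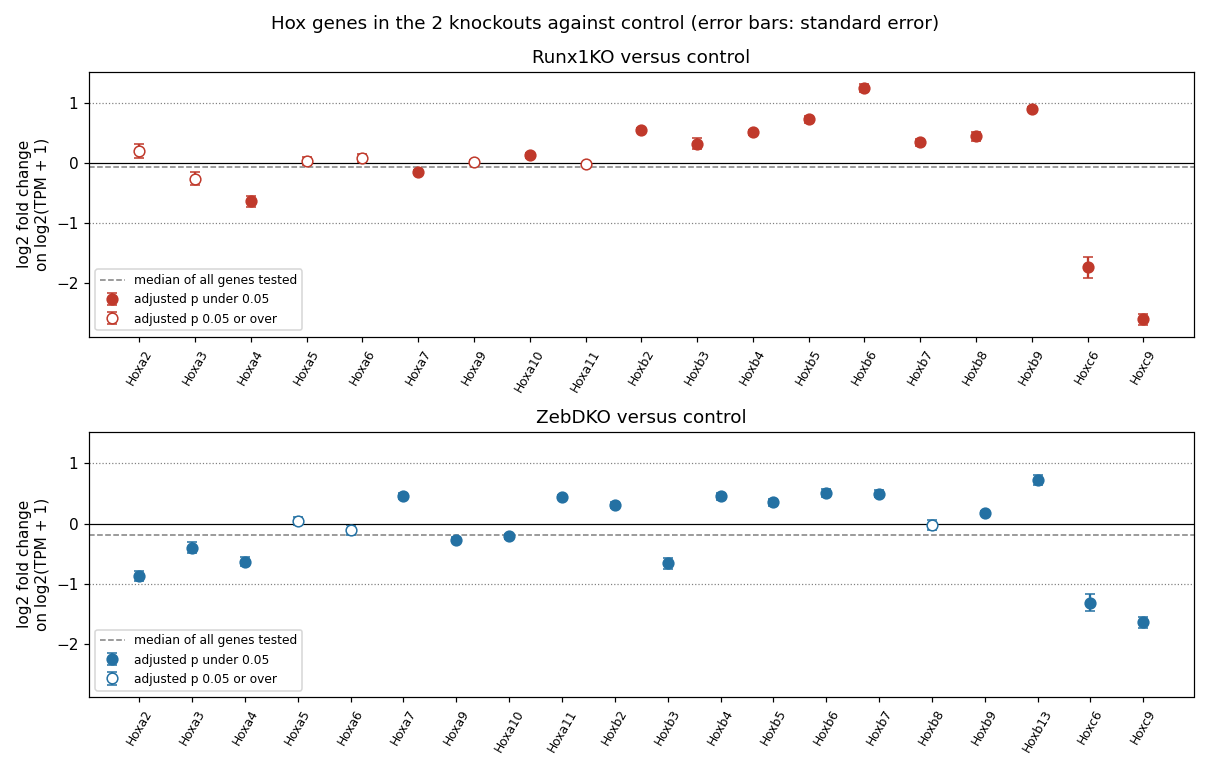
Log2 fold change on the log2(TPM + 1) scale of tested Hox genes in Runx1KO (top) and ZebDKO (bottom) against control, with standard errors from limma; filled points have an adjusted p under 0.05, dotted lines mark 2-fold and the dashed line the median of all genes tested. Hoxb13 in Runx1KO and Hoxd3 in ZebDKO are left out because 1 group is listed at 0; Hoxb2 to Hoxb9 lie above 0 in Runx1KO, while Hoxc6 and Hoxc9 lie below -1 in both panels.

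The comparison of ZebDKO with control asked how the same genes responded to the loss of both Zeb repressors. It shares its control libraries with the comparison above. Of 22 members tested among 12974 genes, 1 rose over 2-fold (Hoxd3) and 2 fell (Hoxc6 and Hoxc9), where 14.8% of all genes passed, 7.48% higher and 7.27% lower. At an adjusted p under 0.05 alone, 10 members rose and 8 fell, where 79.4% of all genes passed (26.9% higher and 52.5% lower). In Hoxa, where 10 genes were tested, 2 of these rose (Hoxa7 and Hoxa11) and 5 fell. The libraries of the 2 groups did not overlap for 18 members, against 81% of all genes tested. The median of all genes lay at -0.18 on the log2 scale and that of the members at 0.03. Median-ratio scaling moved the median of all genes by 0.18 and the share of higher genes among those passing from 33.9% to 50.2%. The value after scaling is therefore given beside some of the Hox changes below. The gene lists further below are given without scaling. After scaling, 11 members were higher and 5 lower, where 38.2% and 37.9% of all genes were; Hoxa3, Hoxa9 and Hoxa10 no longer passed as lower (adjusted p = 0.0789, 0.0988 and 0.681) and Hoxa5 passed as higher.

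Hoxd3, which shapes the cervical vertebrae, was listed at 0 in all 6 control and Runx1KO libraries and stood at 5, 5.3 and 4.9 TPM in ZebDKO (limma adjusted p = 1.91e-07 against control). It passed the filter through ZebDKO alone. It lies at chr2:74549986-74586331, an annotated span that overlaps Hoxd4 and an antisense gene, and Hoxd4 itself did not exceed 0.1 TPM in any library. Hoxa2, which specifies the second branchial arch, read 4.1, 3.5 and 3.4 TPM in control, 3.6, 5 and 4.7 TPM in Runx1KO and 1.6, 1.5 and 1.5 TPM in ZebDKO. ZebDKO lay below all other libraries, a log2 fold change of -0.88 (SE 0.0851, limma adjusted p = 4.89e-05), or -0.74 after scaling.

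Within Hoxb, 7 genes rose in ZebDKO, 1 fell and Hoxb8 did not pass. Of all genes tested, 26.9% rose and 52.5% fell, or 38.2% and 37.9% after scaling. Hoxb13, with the values given above, had the largest rise, a log2 fold change of 0.72 (SE 0.0871), or 0.90 after scaling. Hoxb7 read 98.7, 93.3 and 107.4 TPM, Hoxb4 41.9, 39.1 and 43.9 TPM, and Hoxb5 21.7, 22.5 and 23.3 TPM in ZebDKO, each above all control libraries. Hoxb2 read 161, 144.3 and 156.4 TPM, also above control. Hoxb3 read 11.6, 12 and 12.5 TPM, below all control libraries, a fall of 0.67 on the log2 scale that stood at -0.48 after scaling. Hoxb8 read 56.3, 54 and 60.8 TPM and overlapped control. Among these, Hoxb9 moved least of those that passed, by 0.17 (SE 0.0308, limma adjusted p = 0.00124), or 0.37 after scaling.

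Whether the 2 knockouts differed from each other was tested by comparing their libraries directly. Of 21 members tested among 13071 genes, 1 was over 2-fold higher in Runx1KO (Hoxa2) and 2 were lower (Hoxb13 and Hoxd3), where 15.8% of all genes passed, 9.2% higher and 6.59% lower. The log2 difference of Hoxa2 was 1.09 (SE 0.109) as deposited and 0.98 after median-ratio scaling, which is short of 2-fold. Hoxb13 and Hoxd3, listed at 0 in Runx1KO, had passed the filter through ZebDKO alone and were bound to differ. At an adjusted p under 0.05 alone, 9 were higher and 5 lower in Runx1KO, where 80% of all genes passed (50.2% higher and 29.8% lower). Their libraries did not overlap for 14 members, against 81.7% of all genes tested. After scaling, 8 were higher and 8 lower, where 39.7% and 39.4% of all genes were. Hoxb9 was higher in Runx1KO by 0.73 (SE 0.0237, limma adjusted p = 2.65e-07), Hoxb6 by 0.74 (SE 0.0583, adjusted p = 1.57e-05) and Hoxb3 by 0.996 (SE 0.0501, adjusted p = 1.74e-06). All 3 were short of 2-fold and kept their direction and an adjusted p under 0.05 after scaling. Hoxb4 gave no detectable difference, at 0.06 (SE 0.0473, limma adjusted p = 0.265). Hoxc9 passed this filter through ZebDKO alone, so it was bound to differ, by a log2 difference of -0.95 (SE 0.101, limma adjusted p = 7.59e-05). After scaling this difference was -1.002, just past 2-fold.

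Genes that act with or on the Hox genes were read from lists chosen by function. TALE cofactors are homeodomain proteins, such as Pbx and Meis, that bind DNA together with Hox proteins. Of 10 tested in Runx1KO, 3 rose and 5 fell with a median log2 fold change of -0.08, against -0.06 over all genes, and Pknox2 was the only one past 2-fold, at 6.6, 6.7 and 6.5 TPM in control and 0 in each Runx1KO library, so that it passed the filter through control alone. Of 10 tested in ZebDKO, 3 rose and 6 fell with a median of -0.31, against -0.18 over all genes. There Pknox2 fell to 1.9, 1.6 and 1.6 TPM and the TALE repressors Tgif1 and Tgif2 rose over 2-fold, by 1.21 and 1.52 on the log2 scale. Meis1 did not reach the filter in any comparison.

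Among 20 Polycomb genes tested in Runx1KO, 10 rose and 7 fell with a median of 0.07, where 30.4% of all genes tested rose and 40.1% fell with a median of -0.06. The Polycomb genes Ezh1, Phf19 and Ring1 rose over 2-fold. Phf19, which helps recruit the second Polycomb complex, passed the filter through Runx1KO alone, where it read 5, 3.9 and 3.9 TPM. Ring1, a subunit of the first Polycomb complex, read 18.1, 17.3 and 18.3 TPM in control, 38.2, 35.4 and 36.9 TPM in Runx1KO and 11.4, 11 and 13.3 TPM in ZebDKO. Ezh1, a histone methyltransferase of the second complex, read 28.7, 26.6 and 28.3 TPM in control, 61.9, 52.6 and 59.3 TPM in Runx1KO and 24.5, 25.2 and 24.8 TPM in ZebDKO. In ZebDKO 3 of 19 rose and 11 fell with a median of -0.17, where 26.9% of all genes tested rose and 52.5% fell with a median of -0.18. These shares and medians are also the background of the lists that follow. Only Phc3 passed 2-fold, falling by 1.02 on the log2 scale, barely past the limit and without scaling. Of 12 trithorax genes and demethylases, 2 rose and 3 fell in Runx1KO (median -0.04) with none past 2-fold. In ZebDKO 3 rose and 5 fell (median -0.05), and Kdm6b, a demethylase of the Polycomb mark, rose from 106.7, 90.5 and 107.7 TPM to 270, 281.7 and 284.8 TPM. Of 14 inputs known to act on Hox genes, such as Cdx factors and retinoid genes, only 4 were tested in either knockout. One rose and the others fell in Runx1KO (median -0.74), and 1 rose and 2 fell in ZebDKO (median -0.38). The retinoic acid hydroxylase Cyp26b1 fell over 2-fold in both, from 1.5 to 2.3 TPM in control to at most 0.3 TPM, having passed the filter through control alone, and the retinoic acid receptor Rara rose by 1.34 in ZebDKO.

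Of 9 kidney partners and targets of the paralogues numbered 11, 6 were tested in each knockout. In Runx1KO 2 rose and 4 fell (median -0.88), and in ZebDKO 1 rose and 4 fell (median -0.49). Gdnf read 13.1, 11.4 and 13.6 TPM in control, 0.1 TPM in each Runx1KO library and 38.6, 41.4 and 39.4 TPM in ZebDKO, so that it fell in one knockout and rose in the other. Eya1 fell over 2-fold in Runx1KO, by 1.32 on the log2 scale, and did not pass in ZebDKO. Osr1, an early kidney factor, read 70.9, 64.1 and 64.3 TPM in control, 0.3, 0.5 and 0.4 TPM in Runx1KO and 18.7, 18.9 and 17.1 TPM in ZebDKO. Gdnf and Osr1 passed the filter of the Runx1KO comparison through control alone. Of the other annotated genes in or beside the clusters, 13 were tested in Runx1KO, with 3 higher, 7 lower and none past 2-fold (median -0.19). In ZebDKO 14 were tested, with 4 higher, 5 lower and again none past 2-fold (median -0.05). In the direct comparison, genes of these 6 lists that differed over 2-fold between the knockouts included Pknox2, Ezh1, Phf19, Ring1, Eya1, Pax2, Gdnf and Osr1, where Pknox2, Gdnf and Osr1 had passed the filter through ZebDKO alone.

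The chromatin files placed open regions and Runx peaks at the 4 clusters, taken from the first to the last Hox gene plus 10 kb on each side. On mm9 the Hox genes span chr6:52105366-52210874 in Hoxa, chr11:96055630-96229570 in Hoxb, chr15:102751534-102867274 in Hoxc and chr2:74506367-74603200 in Hoxd. The study sorted its ATAC-seq peaks into regions that stay open, close or open in Runx1KO cells. The clusters held 39 of the 55649 regions: 32 stable, 7 closing and 0 opening, where 67.4%, 15.7% and 16.9% of all regions fell in these classes. Hoxb held 18 stable and 1 closing region and Hoxa 12 stable and 5 closing, of which 1, chr6:52197922-52199261, is centred at -2.38 kb from the start of Hoxa11. By the starts of the annotated gene spans, the other closing Hoxa regions were nearest to Hoxa4 (centred at 8.06, 6.64 and -5.5 kb) and Hoxa2 (-11.9 kb). Counting every annotated start, a closing region also lay within 1 kb of a start of Hoxa3 inside its span, as given below. Hoxc held a single open region, chr15:102829198-102830067, a closing one inside Hoxc6 and 0.945 kb after its start. Hoxd held 2 stable regions, of which chr2:74553778-74554261 lies 4.03 kb after the start of Hoxd3, a gene listed at 0 in the control and Runx1KO cells in which the region was open. Within the window of 10 kb around the cluster, the regions nearest to Hoxb13 were the Runx2 peaks centred 38.3 kb after its start, present in both lists. Hoxb13 lies at the edge of the cluster, so regions more than 10 kb before it were not counted.

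Runx peaks were called on combined replicates, so counts have no replicate error. The clusters held 4 Runx1 peaks in control cells, 2 in Hoxa (at Hoxa10 and Hoxa11) and 2 in Hoxb. All 4 overlapped a stable ATAC region and a peak in both Runx2 lists. Runx2 had 15 peaks in control (7 in Hoxa, 6 in Hoxb, 1 in Hoxc and 1 in Hoxd) and 25 in Runx1KO (10, 11, 2 and 2), where the lists hold 17595 and 15608 peaks over the genome. At the clusters, 11 peaks overlapped between the lists, 11 of the 15 and 11 of the 25. Of the 25, 10 lay on stable regions, 2 on closing regions of Hoxa and 13 outside the ATAC regions; of the 15, 10 lay on stable regions and 5 outside. The most enriched Runx2 peak of the Hox clusters in control was the one at Hoxb9, with a 6.84-fold enrichment over background and a -log10 q of 17.5; in Runx1KO it was 5.26-fold, with a -log10 q of 12.4. In Runx1KO the intergenic Hoxb peak led, at 7.3-fold against 6.54-fold in control. The core TGTGGT, on either strand, stood in 2 of 4 Runx1 peaks, 8 of 15 Runx2 peaks in control and 12 of 25 in Runx1KO, where 33.1% of 9977, 40% of 17360 and 44.6% of 15393 peaks on the chromosomes read here held it. Peaks were searched at their own width, whose median was 268.5, 258 and 207 bp at the Hox clusters and 171, 217 and 259 bp over the genome.

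**Figure D4:**
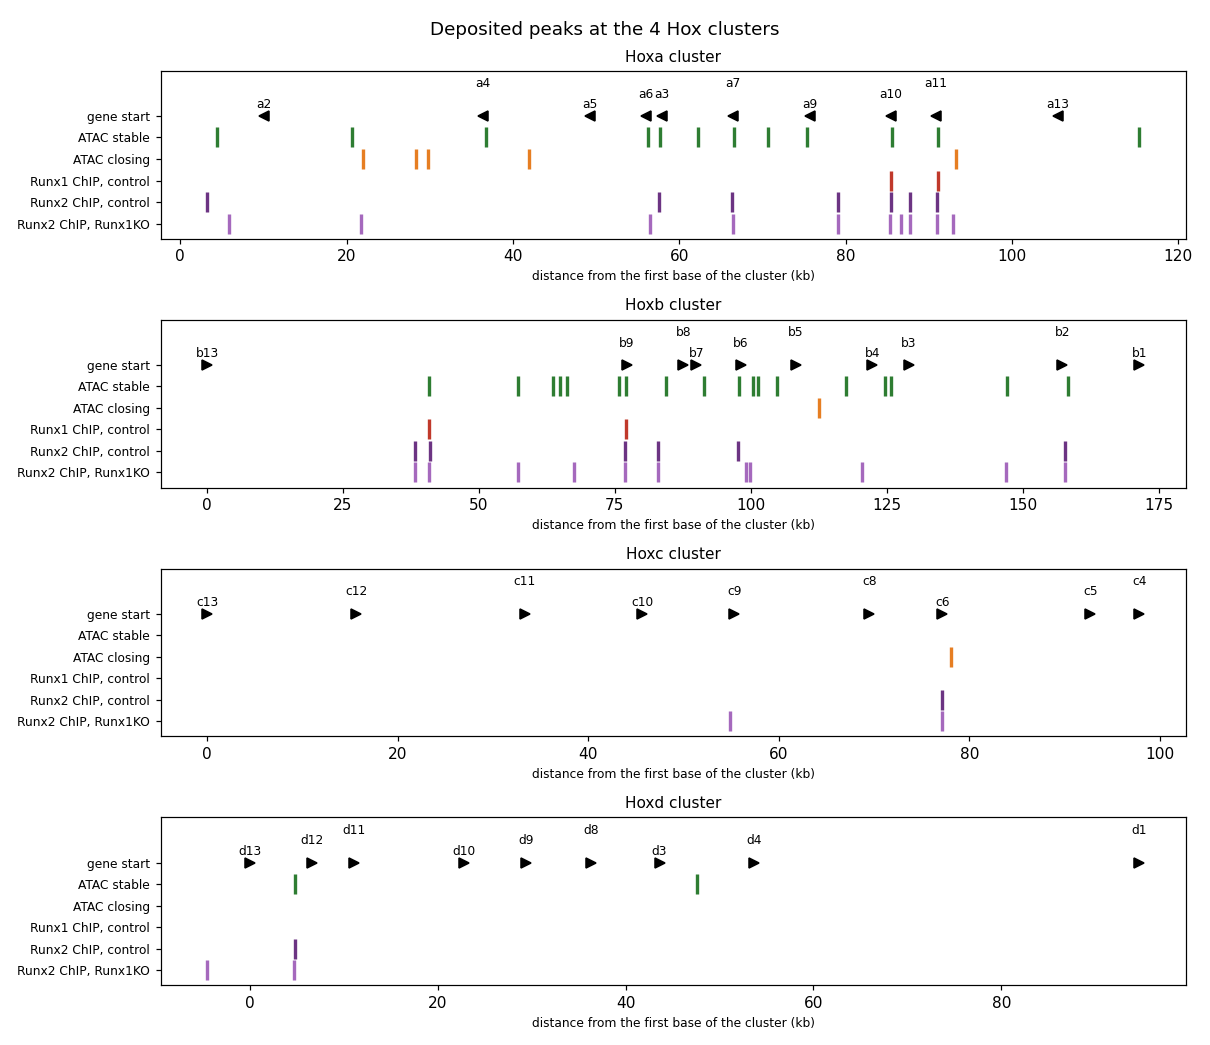
Gene starts (arrowheads show the direction of transcription) and deposited peaks at each Hox cluster, by distance in kb from the first base of the cluster; each tick is the middle of 1 peak, in rows for stable and closing ATAC regions, Runx1 peaks in control and Runx2 peaks in control and Runx1KO. Hoxb holds 18 stable regions spread from Hoxb9 to Hoxb2 and upstream of Hoxb9, while Hoxc holds 1 region, of the closing class, and Hoxd holds 2.

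At gene starts, 14 of the 39 Hox genes had an ATAC region of any class within 1 kb of an annotated start, where 55.6% of 20435 genes did. A stable region was there for 13 members (50.7% of all genes), a closing one for 2, Hoxa3 and Hoxc6 (3.39%), and an opening one for 0 (4.81%). The open starts followed the level: 12 of 16 Hox genes with a mean of at least 10 TPM in control had one (75%), against 93.6% of all such genes, and 0 of 18 Hox genes under 1 TPM did, against 17.9% of all such genes. Hoxa5, Hoxb4, Hoxb5 and Hoxb8 were the members above 10 TPM without a region at their start. A Runx1 peak lay at the start of 3 members, Hoxa10, Hoxa11 and Hoxb9 (11.7% of all genes). Runx2 peaks lay at 9 starts in control (28.5%) and at 10 in Runx1KO (29.9%). Overlapping peaks of both lists lay at Hoxa7, Hoxa10, Hoxa11, Hoxb2, Hoxb9 and Hoxc6, whereas the 2 lists held separate peaks at Hoxb6, centred at -0.578 kb in control and 0.997 kb in Runx1KO. Among the 8 Hoxb genes that rose in Runx1KO, Hoxb2 and Hoxb9 had a Runx2 peak at the start that overlapped between the lists, and only Hoxb9 had one of Runx1.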

How the data were processed

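RNA-seq (3 libraries each of control, Runx1KO and ZebDKO), ATAC-seq and Runx ChIP-seq files were used as deposited. The authors trimmed reads (FastQC, Trim Galore), mapped them with STAR to mm9 and counted RefSeq genes with featureCounts 1.6.2, and the expression values are deposited as TPM with 1 decimal; their own tests used DESeq2 1.26.0. The authors called Runx peaks with MACS2 on combined replicates, dropping peaks of the Runx1 antibody in Runx1KO cells, and the peak lists hold each peak's fold enrichment, a linear ratio, and its -log10 q-value as deposited. ATAC regions were those found in at least 2 of 3 replicates, in 3 classes by change in Runx1KO; their columns of the authors' own comparison, a log2 fold change and its significance, were not used. How gene counts used strand is not given in the sources used here. No sample column of another origin was present (0 unused columns).

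Per comparison, limma 3.58.1 (R 4.3.3) was fitted to genes that reached 1 TPM in 3 or more of its 6 libraries, on log2(TPM + 1) with a variance trend, two-sided with Benjamini-Hochberg adjustment over all genes tested; over 2-fold with an adjusted p under 0.05 counted as a call. The fit was tested on simulated data. Hox genes called anywhere, or with a mean of at least 5 TPM in a group, are named with every library, and at most 4 called genes per list. Peaks within 10 kb of a cluster were counted; a start held a peak with at least 1 bp of overlap within 1 kb. Sequences and coordinates came from the mm9 genome and the GENCODE M1 annotation (pysam 0.24.0). Alternatives varied pseudocount, filter, scaling, libraries fitted, trend, replicate block, table, fold limit and peak windows. Members and lists were chosen with earlier results of these data known. Some items are not reported or drawn here.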

Additional observations from a re-analysis of the deposited data

Results flagged for a closer look

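A set of 4 Hox genes passed the test against control in opposite directions in the 2 knockouts and also differed between the knockouts in the direct limma comparison. Hoxb13 averaged 6.3 TPM in control, 0 in Runx1KO and 11 TPM in ZebDKO, a difference of -11 TPM (Runx1KO minus ZebDKO, adjusted p = 3.37e-08). It had passed the filter of both Runx1KO comparisons through the other group alone and was bound to differ there. Hoxb3 averaged 19.8 TPM in control, 25 TPM in Runx1KO and 12 TPM in ZebDKO, a difference of 13 TPM (adjusted p = 1.74e-06). Hoxa7 averaged 49.7, 44.9 and 68.7 TPM in the same order, a difference of -23.8 TPM (adjusted p = 2.47e-05). Hoxa10 averaged 35.8, 39.3 and 30.8 TPM, a difference of 8.53 TPM (adjusted p = 0.00014). The fall of Hoxa7 in Runx1KO and of Hoxa10 in ZebDKO did not pass after median-ratio scaling, and the rises of Hoxa10 and Hoxb3 in Runx1KO each failed without single libraries, as given above. Groups of 3 libraries were not examined for outlying samples.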

How the results depend on the processing

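Calls past 2-fold numbered 4, 3 and 3 for Runx1KO against control, ZebDKO against control and Runx1KO against ZebDKO. With no fold limit they numbered 14, 18 and 14. A filter of 5 TPM left 1 call in ZebDKO and 1 in the direct comparison, since low members were no longer tested. Pseudocounts of 0.1 and 0.5 gave 5 and 5 calls in the direct comparison and 4 and 4 in ZebDKO. There Hoxa2 passed 2-fold, at a log2 fold change of -1.20 and -1.03. Leaving out single libraries gave 4 to 4, 3 to 3 and 3 to 4 calls. The members' median log2 fold change of 0.09 in Runx1KO went to -0.014 with no filter and ranged from 0.04 to 0.12 without single libraries. In ZebDKO the median of 0.03 went to 0.11 with the 5 TPM filter and 0.20 with median-ratio scaling, and ranged from -0.0029 to 0.07 without single libraries. The direct median of 0.15 went to -0.046 with no filter and -0.0062 with scaling, and ranged from 0.10 to 0.22, the highest without Runx1KO replicate 1. The cause of these shifts was not tested. Extending the clusters by 50 kb on each side gave 7 Runx1 peaks in place of 4, the added ones all at Hoxb (5 in place of 2). With this window Hoxb also held 11 Runx2 peaks in control, 15 in Runx1KO and 22 stable regions, in place of 6, 11 and 18.

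Single gene comparisons with an adjusted p under 0.05, whatever the fold, numbered 46. Of their 651 values under the alternatives, 639 kept direction and an adjusted p under 0.05. The other 12, from 7 comparisons, had an adjusted p of 0.05 or more, and 0 reversed. Whether a change stayed over 2-fold was not part of this count. Some of these 12 came from the single libraries named for Hoxa10 and Hoxb3. The others came from scaling, for Hoxa7 in Runx1KO, Hoxa3, Hoxa9 and Hoxa10 in ZebDKO and Hoxb2 in the direct comparison. Deviations of libraries with the same replicate number correlated at -0.0495 to 0.0399, so the numbers did not pair the libraries, and the replicate block left the counts at 4, 3 and 3 and the medians at 0.09, 0.03 and 0.15. The 3 cultures a group, TPM values without read counts and peaks without replicate values limit precision.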
